A study of Mus musculus with 12 samples.

Results

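The 7 genes described here, Rrm1, Rrm2, Tyms, Tk1, Dut, Pcna and Rfc3, make or guard DNA precursors or build the replication fork. They were taken as every probe set whose platform annotation gives one of these symbols alone, which found all 7 among 12393 measured genes, on 14 of 20380 probe sets with 1 symbol. A further probe set carries Tyms together with the pseudogene Tyms-ps and was followed beside them. The samples were 12 Affymetrix mouse arrays, 1 per RNA sample, in 4 groups. The mixed-strain cultures (n = 2) and the FVB cultures (n = 3) held primary keratinocytes of newborn mice, each pooled from 5 mice and kept in medium low in calcium for at most 3 days without passage. The 30-day skin (n = 5) was tissue of mice aged 30 days, and the newborn skin (n = 2) was tissue of newborn mice. The strain label of the mixed-strain cultures and of 30-day skin is C57 DBA FVB mixed, and that of the FVB cultures and newborn skin is FVB. Strain and age cannot be told apart within skin, so FVB cultures were set against newborn skin, mixed-strain cultures against 30-day skin, 30-day against newborn skin, and mixed-strain against FVB cultures. Nothing in the labels says that samples of a group came from separate animals, and p-values measure only the spread between these arrays, which may be technical.

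A cell that copies its genome needs all 4 deoxynucleotides in balance. Ribonucleotide reductase, a complex of the large subunit Rrm1 and the small subunit Rrm2, reduces ribonucleotides to deoxynucleotides. Tyms makes thymidylate from dUMP, Tk1 salvages thymidine by phosphorylating it, and Dut cleaves dUTP, which supplies dUMP and keeps uracil out of DNA. Pcna is the sliding clamp that holds polymerases on the template, and Rfc3 is a subunit of the clamp loader that places it there. Transcripts of most of these genes rise as cells enter S phase, under control of E2F factors, and in skin the dividing cells lie mainly in the basal epidermis and the hair bulb.

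Promoter sequence was available from RefSeq (GRCm38.p6) for 7 of the 7 genes, as windows of 250 bases before to 50 bases after an annotated start. For Tyms, Tk1 and Dut that start lies inside the annotated gene and for the other 4 members at its edge, so a count over the 7 windows mixes both kinds of start. Each window was searched on both strands for CCAAT, for the GC box GGGCGG and for the E2F words TTTCCCGC, TTTCGCGC, TTTGCCGC and TTTGGCGC, and no match overlapped another. CCAAT was found in 4 of the 7 windows, those of Rrm1, Rrm2, Pcna and Rfc3, and in 37.4% of all 32851 promoter windows. GGGCGG was found in 5 of the 7 windows, those of Rrm2, Pcna, Tyms, Tk1 and Dut, and in 35.7% of all. An E2F word was found in the Rfc3 window alone among the 7, at -10 and, on the minus strand, at 1, against 2.26% of all windows. The bases before the start of the 4 genes with CCAAT are shown because they hold these matches and their start is at the gene's edge. They read 5′ to 3′ on the gene's strand, with CCAAT, its reverse complement ATTGG and the E2F word in capitals.
Rrm1, chr7:102441595-102441694, plus strand: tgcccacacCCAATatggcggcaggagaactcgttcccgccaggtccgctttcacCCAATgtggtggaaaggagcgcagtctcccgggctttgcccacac
Rrm2, chr12:24708154-24708253, plus strand: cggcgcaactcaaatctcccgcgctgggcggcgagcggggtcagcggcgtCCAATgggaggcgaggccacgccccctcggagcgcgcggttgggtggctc
Pcna, chr2:132253181-132253280, minus strand: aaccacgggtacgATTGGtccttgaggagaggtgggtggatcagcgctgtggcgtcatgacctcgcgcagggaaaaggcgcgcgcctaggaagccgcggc
Rfc3, chr5:151651209-151651448, minus strand: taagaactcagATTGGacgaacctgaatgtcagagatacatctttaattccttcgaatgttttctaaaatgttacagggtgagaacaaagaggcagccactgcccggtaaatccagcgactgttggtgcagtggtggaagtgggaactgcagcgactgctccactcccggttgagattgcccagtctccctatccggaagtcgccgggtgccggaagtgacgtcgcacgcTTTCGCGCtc
Rrm1 carried CCAAT at -91 and -45 from the start, Rrm2 at -50, Pcna at -87 and Rfc3 at -229. A match describes the letters only, and the arrays hold no measurement of a factor at these sites. Only the exact words were searched, so a window without a match may still hold a site that departs from them.

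Values are RMA expression on a log2 scale, and they ran from 2.89 to 13.59, with array medians of 5.86 to 6.01. Markers of basal keratinocytes averaged 9.98 to 10.50 over the cultures, against 8.90 to 9.11 in 30-day skin and 9.05 to 9.16 in newborn skin. Of these 8, 6 were higher and 0 lower in FVB cultures than in newborn skin. In mixed-strain cultures against 30-day skin 5 were higher and 1 lower, Trp63 (means of 8.31 and 9.03). Suprabasal markers averaged 6.36 to 7.16 over the cultures, against 9.63 to 9.85 in 30-day skin and 9.925 and 9.926 in newborn skin, and all 7 were lower in both comparisons. The 7 fibroblast markers averaged 5.42 to 5.996 over the cultures, against 10.91 to 11.47 in 30-day and 11.34 and 11.38 in newborn skin, and all 7 were lower in FVB cultures than in newborn skin. Hair markers averaged 5.06 to 5.18 over the cultures, against 10.57 to 11.09 in 30-day and 9.62 and 9.66 in newborn skin. In tissue of several cell types, fewer cells of a type and less RNA per cell cannot be told apart. Replicate 1 of 30-day skin stood apart: its actin probe sets differed by 1.74 between the 3′ and the 5′ end, against 0.67 to 0.82 in the other 4 arrays of the group, 0.99 and 1.14 in newborn skin, 0.56 to 0.74 in FVB and 0.21 and 0.35 in mixed-strain cultures.

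The small subunit of ribonucleotide reductase, Rrm2, was higher in culture than in the skin of the same strain label in both comparisons, and the large subunit, Rrm1, was higher in mixed-strain cultures and, on 1 of its 2 probe sets, in FVB cultures. On its probe set of highest mean, 1434437_x_at, Rrm2 had 9.38 and 9.28 in mixed-strain cultures and 9.86, 9.79 and 9.96 in FVB cultures. The same probe set read 8.50, 8.25, 8.22, 7.86 and 7.99 in 30-day skin and 9.32 and 8.86 in newborn skin. All 5 cultures lay above every array of 30-day skin, and the FVB cultures also above both arrays of newborn skin, while newborn skin and the mixed-strain cultures overlapped. Rrm2 was 0.78 ± 0.17 higher in FVB cultures than in newborn skin (log2 difference ± SE, 1.72-fold, limma adjusted p = 0.0021) and 1.17 ± 0.16 higher in mixed-strain cultures than in 30-day skin (2.25-fold, limma adjusted p = 2.9e-05). The first of these calls was lost without replicate 2 of newborn skin (0.55). Its direction turned (-0.09) when arrays were centred on epithelial junction genes, a list that also holds the basal keratins Krt5 and Krt14.

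The suffix x of that probe set marks probes that may match other transcripts, and the other Rrm2 probe sets moved the same way between culture and skin. Probe set 1448226_at read 8.80 and 8.53 in mixed-strain and 9.48, 9.46 and 9.68 in FVB cultures, against 7.25, 7.51, 7.78, 6.52 and 6.72 in 30-day and 8.44 and 8.31 in newborn skin. Probe set 1416120_at read 8.52 and 8.15 in mixed-strain and 8.44, 7.97 and 8.15 in FVB cultures, against 6.43, 6.93, 6.92, 6.73 and 6.84 in 30-day and 7.26 and 7.56 in newborn skin. All 3 passed in FVB cultures against newborn skin, by 0.78, 0.78 and 1.17, where 34.4% of the 22626 probe sets tested passed. All 3 also passed in mixed-strain cultures against 30-day skin, by 1.17 to 1.57, where 37.5% of probe sets passed. Between the cultures the 3 probe sets did not agree in direction: the differences of mixed-strain from FVB cultures were 0.15, -0.54 and -0.88, and none passed, against 9.22% of all probe sets.

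Rrm1 gave a less even picture, because its probe sets disagreed in size and in 1 array. Probe set 1448127_at read 9.61 and 9.40 in mixed-strain and 9.16, 8.71 and 8.84 in FVB cultures. In 30-day skin it read 6.87, 8.17, 8.22, 8.10 and 8.02, and in newborn skin 8.23 and 8.21. The cultures again lay above all skin arrays, but the value of 6.87 belonged to replicate 1 of 30-day skin, the array with the wide actin gap. Probe set 1415878_at read 8.73 and 8.61 in mixed-strain and 8.89, 8.94 and 8.72 in FVB cultures, against 7.83, 7.79, 7.80, 7.41 and 7.61 in 30-day and 8.31 and 8.46 in newborn skin. There replicate 1 of 30-day skin was the highest of its group.

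In mixed-strain cultures Rrm1 was 1.63 ± 0.28 higher than in 30-day skin on 1448127_at (3.09-fold, limma adjusted p = 0.00023) and 0.98 ± 0.12 higher on 1415878_at. In FVB cultures against newborn skin the difference on 1448127_at was 0.68 ± 0.30 (95% interval 0.04 to 1.33) and missed the threshold with a limma adjusted p of 0.090, and 1415878_at was higher by 0.47 ± 0.14 (limma adjusted p = 0.016 over all probe sets). Without replicate 1 of 30-day skin, whose values enter the shared estimate of spread, the difference on 1448127_at passed at the same size (limma adjusted p = 0.00050). By level the groups ran from mixed-strain cultures through FVB cultures and newborn skin down to 30-day skin on 1448127_at, and no neighbours in that order passed the test.

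**Figure D1:**
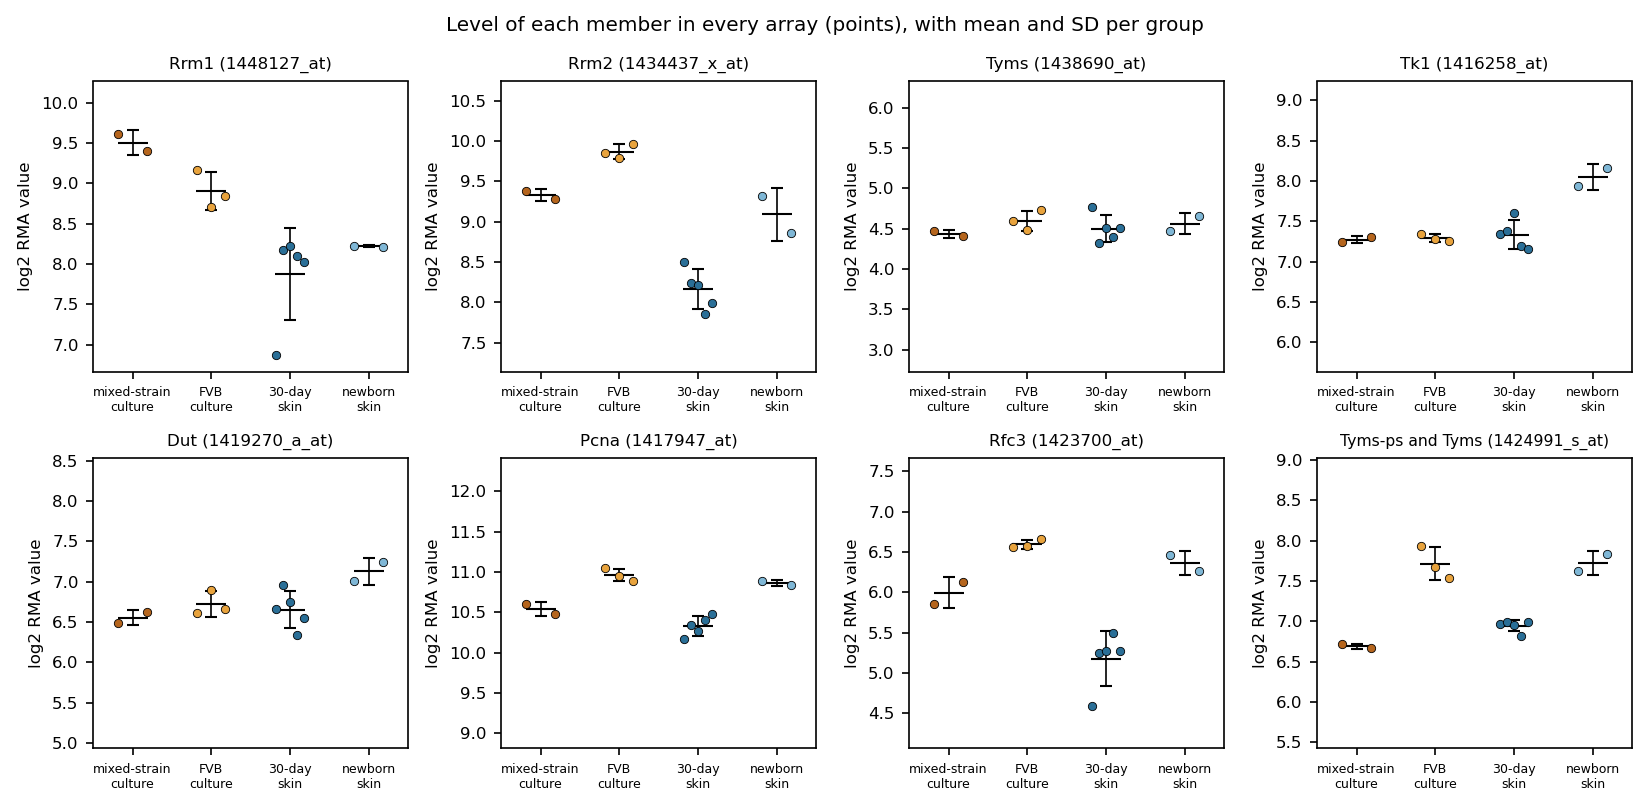
Log2 RMA value (y axis) of the highest-mean probe set of each member, and of the probe set shared by Tyms and Tyms-ps, in mixed-strain cultures, FVB cultures, 30-day skin and newborn skin (x axis). Points are arrays and bars are group mean and SD, each panel spans the same log2 range, and the low Rrm1 point at 6.87 and the low Rfc3 point at 4.59 are both replicate 1 of 30-day skin.

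Rrm2b is the p53-induced small subunit, which serves cells outside S phase, and it passed in none of the 4 comparisons, with a mean of 6.15 ± 0.17 in mixed-strain cultures (SD, n = 2), 5.97 ± 0.04 in FVB cultures (SD, n = 3), 6.03 ± 0.29 in 30-day skin (SD, n = 5) and 5.92 ± 0.12 in newborn skin (SD, n = 2). Rrm2 minus Rrm2b within each array shows how the S-phase subunit moved against its paralog, and only its differences between groups can be read, since the probe sets differ in affinity. It was 3.12 and 3.26 in mixed-strain and 3.90, 3.85 and 3.95 in FVB cultures, against 2.37, 2.05, 1.99, 2.34 and 1.91 in 30-day skin and 3.49 and 2.85 in newborn skin. Newborn skin lay on both sides of the mixed-strain cultures and below the FVB cultures. All 5 cultures lay above all 5 arrays of 30-day skin, by 1.48 on average (two-sided exact permutation test, p = 0.0079, the smallest that 252 arrangements allow, adjusted over both pairs 0.016). The test pooled cultures of both strain labels, all of newborn cells, against 30-day skin of mixed strain. Culture and age, and strain for the FVB cultures, therefore cannot be told apart in it. The cytosolic and the mitochondrial thymidine kinase gave no such shift: Tk1 minus Tk2 averaged 2.12 ± 0.17 in the cultures and 2.14 ± 0.22 in 30-day skin (SD, n = 5 each), a difference of -0.01 (two-sided exact permutation p = 0.91). In newborn skin Tk1 minus Tk2 was 2.83 and 2.86, above every other array.

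**Figure D2:**
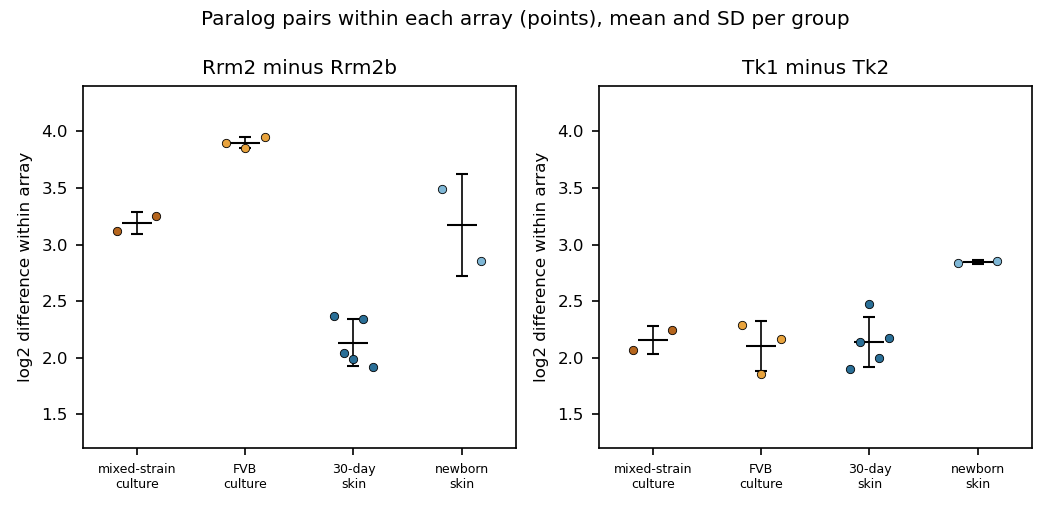
Difference in log2 value within each array (y axis) of Rrm2 minus Rrm2b and of Tk1 minus Tk2, by group (x axis), as points with mean and SD. Rrm2 minus Rrm2b lies above 3.1 in every culture and below 2.4 in every array of 30-day skin, whereas Tk1 minus Tk2 sets the 2 arrays of newborn skin apart at 2.83 and 2.86.

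In culture against skin, the genes of thymidylate salvage and dUTP removal did not follow ribonucleotide reductase. Tk1 had 7.24 and 7.31 in mixed-strain and 7.35, 7.28 and 7.25 in FVB cultures. In skin it had 7.34, 7.38, 7.60, 7.19 and 7.16 at 30 days and 7.94 and 8.17 in newborn skin. Newborn skin stood above the 10 other arrays, and the cultures of both strains and 30-day skin overlapped. Tk1 fell in FVB cultures relative to newborn skin by 0.76 ± 0.13 on the log2 scale (1.69-fold lower, limma adjusted p = 0.00033), while mixed-strain cultures differed from 30-day skin by -0.06 (95% interval -0.32 to 0.20, limma adjusted p = 0.76). Mixed-strain and FVB cultures differed by -0.02 (95% interval -0.31 to 0.27).

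For Tk1 the culture-skin difference itself was not the same in both sets. It was 0.70 ± 0.18 higher in the mixed-strain set than in the FVB set (limma adjusted p = 0.022), 1 of 7 members to pass where 11.2% of the 12393 genes did, and the call was lost in 6 of 22 alternatives, among them the fits without replicate 1 or 2 of the mixed-strain cultures (limma adjusted p of 0.071 and 0.098) and without replicate 2 of newborn skin (limma adjusted p of 0.12). Skin age changes along with strain between the sets, and both sets had cultures from newborn mice. This value is the difference between the cultures (-0.02) less that between the skins (-0.72). It therefore largely repeats the lower Tk1 of 30-day skin and is no separate result.

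Dut, like Tk1, was highest in newborn skin, with smaller steps. Probe set 1419270_a_at read 6.49 and 6.62 in mixed-strain and 6.61, 6.90 and 6.65 in FVB cultures, against 6.67, 6.96, 6.75, 6.34 and 6.55 in 30-day and 7.01 and 7.25 in newborn skin. Both newborn arrays lay above all others, though the lower of them only just above the highest array of 30-day skin. The difference of FVB cultures from newborn skin was -0.40 ± 0.16 (95% interval -0.75 to -0.06) and missed the threshold (limma adjusted p = 0.061), and it passed without replicate 4 of the FVB cultures (-0.49, limma adjusted p = 0.042) or without replicate 2 or 4 of 30-day skin (limma adjusted p of 0.039 and 0.035). The dimmer probe set 1419269_at, with group means of 4.84 to 5.21, was lower in mixed-strain cultures than in 30-day skin by 0.32 ± 0.12, where 1419270_a_at differed by -0.10 and did not pass.

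Thymidylate synthase could not be followed on its own probe sets. The 3 probe sets with the symbol Tyms alone had group means between 3.61 and 4.60 and stood at or above 2.0%, 9.1% and 12.2% of all probe sets, and none passed in any of the 4 comparisons. Probe set 1424991_s_at, which Tyms shares with the pseudogene Tyms-ps, was brighter and did vary. It read 6.71 and 6.67 in mixed-strain and 7.94, 7.67 and 7.54 in FVB cultures, against 6.96, 6.99, 6.96, 6.82 and 6.99 in 30-day and 7.62 and 7.83 in newborn skin. It split the arrays by their strain label: the 7 arrays of mixed strain lay at or below 6.99 and the 5 of FVB at or above 7.54.

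On that shared probe set mixed-strain cultures were lower than FVB cultures by 1.02 ± 0.12 on the log2 scale (limma adjusted p = 0.00028 over all probe sets), and 30-day skin was lower than newborn skin by 0.78 ± 0.11 (limma adjusted p = 0.00039). The culture-skin differences were -0.01 in the FVB set and -0.25 in the mixed-strain set, and neither passed (limma adjusted p of 0.96 and 0.10). Signal from Tyms and from the pseudogene cannot be told apart here, nor can a strain difference in expression and a sequence difference under the probes.

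At the fork, Pcna and Rfc3 were lower in 30-day than in newborn skin, Pcna was lower in mixed-strain than in FVB cultures, and neither passed between FVB cultures and newborn skin. Pcna had 10.61 and 10.48 in mixed-strain and 11.04, 10.95 and 10.89 in FVB cultures, against 10.17, 10.34, 10.27, 10.40 and 10.48 in 30-day and 10.89 and 10.84 in newborn skin. The FVB cultures and newborn skin lay together at the top, and the mixed-strain cultures touched the upper end of 30-day skin. Rfc3 on 1423700_at had 5.86 and 6.14 in mixed-strain and 6.56, 6.57 and 6.66 in FVB cultures, against 4.59, 5.25, 5.28, 5.49 and 5.27 in 30-day and 6.47 and 6.26 in newborn skin. The Rfc3 groups did not overlap and their means ran in the same order as those of Pcna, FVB cultures first, then newborn skin, mixed-strain cultures and 30-day skin.

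Relative to newborn skin, FVB cultures differed by 0.10 ± 0.11 in Pcna (95% interval -0.14 to 0.35) and by 0.23 ± 0.20 in Rfc3 (95% interval -0.19 to 0.66), and neither passed (limma adjusted p of 0.54 and 0.40). Mixed-strain cultures were higher than 30-day skin in Rfc3 by 0.82 ± 0.18 (1.76-fold, limma adjusted p = 0.0020) and differed in Pcna by 0.21 ± 0.10, which did not pass (95% interval -0.01 to 0.44, limma adjusted p = 0.13). Centred on epithelial junction genes, the Rfc3 difference was 0.27 (limma adjusted p = 0.11) and that of Pcna turned to -0.34. The other Rfc3 probe set, 1432538_a_at, had 6.04 and 5.85 in mixed-strain and 6.58, 6.52 and 6.30 in FVB cultures, against 5.10, 5.29, 5.26, 5.18 and 5.58 in 30-day and 5.98 and 6.24 in newborn skin. It too was higher in mixed-strain cultures than in 30-day skin, by 0.66 ± 0.14, and there replicate 1 of 30-day skin, the lowest array of 1423700_at at 4.59, was again the lowest of its group.

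Counted over the members, 1 of 7 was higher in FVB cultures than in newborn skin (Rrm2) and 1 lower (Tk1), where 20.6% of all genes were higher and 18.8% lower. In mixed-strain cultures against 30-day skin 3 of 7 were higher (Rrm1, Rrm2 and Rfc3) and 0 lower, where 21.7% of genes were higher and 19.7% lower. Since the cultures of both comparisons came from newborn mice, the second comparison includes the age of the skin.

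**Figure D3:**
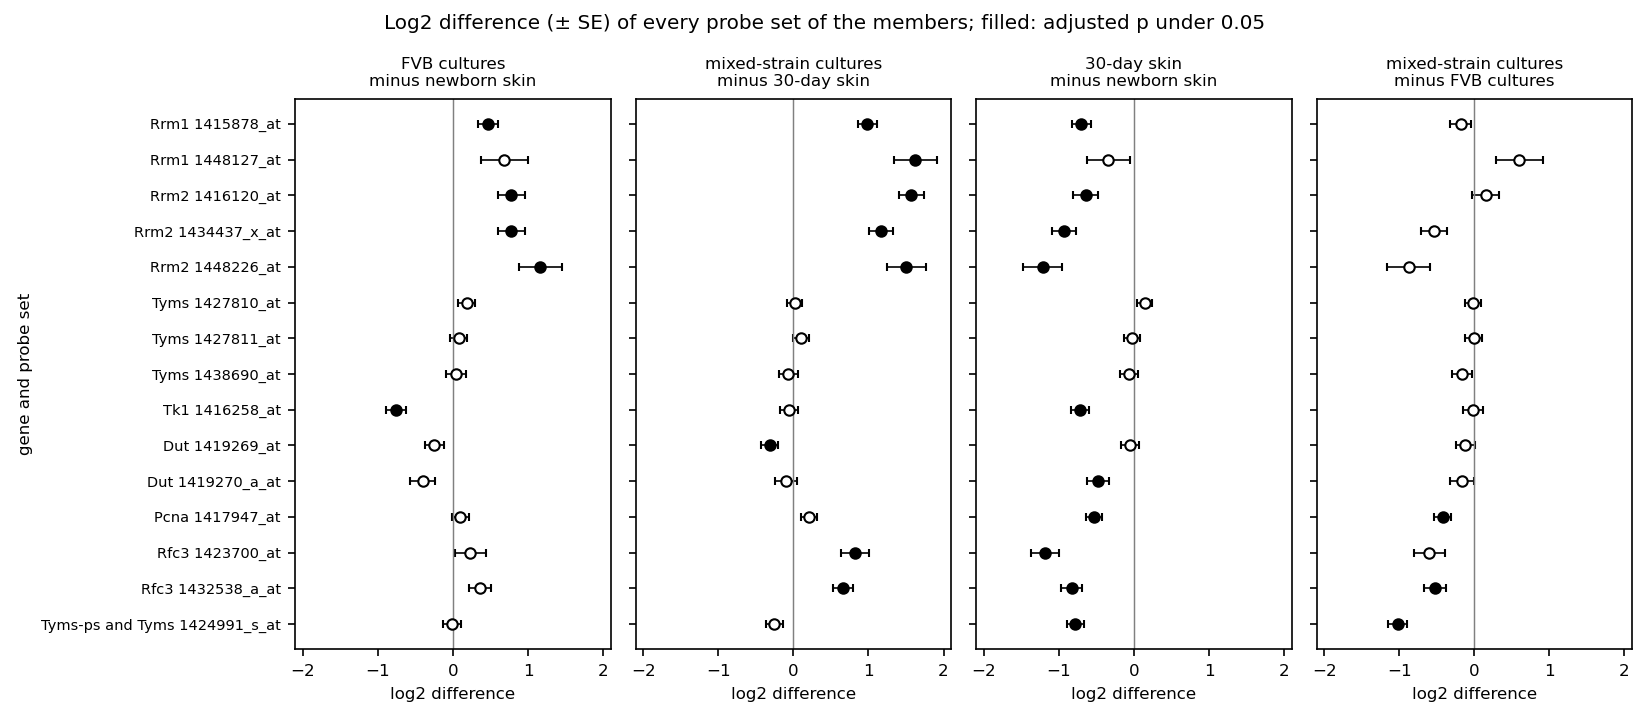
Log2 difference with its SE (x axis) of each member probe set and of the probe set of Tyms-ps and Tyms (y axis) in the 4 comparisons, 1 panel each, with filled points where the limma adjusted p over all probe sets is under 0.05. All 3 Rrm2 probe sets lie right of 0 in both culture-skin panels and left of 0 for 30-day against newborn skin, and the shared Tyms probe set lies at -1.02 between the cultures.

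Between the skins, which differ in age and in strain, most members were lower in the older tissue. In 30-day skin 5 of the 7 genes were lower than in newborn skin and 0 higher, where 13.1% of all genes were lower and 8.03% higher. Rfc3 fell by 1.19 ± 0.18 (2.28-fold lower, limma adjusted p = 0.00031), Rrm2 by 0.93 ± 0.16 (1.90-fold lower, limma adjusted p = 0.00078) and Tk1 by 0.72 ± 0.12 (1.64-fold lower, limma adjusted p = 0.00075). Pcna fell by 0.53 ± 0.10 (1.44-fold lower, limma adjusted p = 0.0023) and Dut by 0.47 ± 0.15 (1.39-fold lower, limma adjusted p = 0.033). On these probe sets no array of 30-day skin reached newborn skin in any of the 5 genes, which were picked because they passed on the same values. The share of all genes without such overlap was not counted. The second Dut probe set, 1419269_at, overlapped between the skins and differed by -0.05 ± 0.12 (limma adjusted p = 0.84).

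The Dut call was the least firm of the 5, lost in 9 of 23 alternatives, among them the fits without replicate 4 or 5 of 30-day skin and without either newborn array. Rrm1 differed by -0.34 ± 0.28 on 1448127_at (95% interval -0.94 to 0.25, limma adjusted p = 0.45), and on 1415878_at it was lower by 0.70 ± 0.12 (limma adjusted p = 0.0017), where 17.2% of probe sets passed. Within 30-day skin probe set 1448226_at of Rrm2 was lower in replicates 4 and 5 (6.52 and 6.72) than in replicates 1 to 3 (7.25 to 7.78), and replicates 2 and 3 resembled each other most over all genes, as did 4 and 5. Such pairs were averaged, and with them both newborn arrays and both mixed-strain cultures, so newborn skin was left with 1 array. In that fit the calls of Dut and Pcna were lost, at differences of -0.47 and -0.56, and those of Rfc3, Rrm2 and Tk1 were kept.

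Hair markers were higher in 30-day than in newborn skin in 9 of 9 genes measured, where 8.03% of all genes were higher. Endothelial markers were lower in 7 of 8, where 13.1% of all genes were lower. Their list means were 5.84 to 5.95 at 30 days and 6.59 and 6.65 in newborn skin. Of 8 basal keratinocyte markers 1 was higher and 3 lower at 30 days, and of 7 suprabasal markers 2 and 4. Macrophage markers were higher in 4 of 8 and lower in 0. Muscle markers averaged 10.68 and 10.73 in replicates 4 and 5 and 11.43 to 11.56 in replicates 1 to 3 of 30-day skin. The part of these cell types in the member differences was not tested.

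Between the cultures, 1 of 7 members was lower in the mixed-strain cultures (Pcna) and 0 were higher, where 6.66% of all genes were lower and 3.18% higher. Pcna fell by 0.42 ± 0.11 (1.34-fold lower, limma adjusted p = 0.032). The call did not survive leaving out replicate 1 or 2 of the mixed-strain cultures or replicate 3 or 4 of the FVB cultures, with a limma adjusted p between 0.073 and 0.25, although the difference stayed between -0.48 and -0.36. Rfc3 differed by -0.60 ± 0.20 on 1423700_at (limma adjusted p = 0.073), and was lower by 0.52 ± 0.15 on 1432538_a_at (limma adjusted p = 0.043). Without replicate 1 of 30-day skin, Rfc3 and Rrm2 passed as lower (limma adjusted p of 0.0038 and 0.023) and Rrm1 on 1448127_at as higher (limma adjusted p = 0.0064). The second Rrm1 probe set differed by -0.18 and did not pass. The mixed-strain cultures also had the narrowest actin gaps, 0.21 and 0.35, a lower basal keratinocyte marker mean (9.98 and 10.05, against 10.43 to 10.50 in FVB cultures, 0 of 8 markers higher and 2 lower) and a lower suprabasal marker mean (6.36 and 6.41, against 7.02 to 7.16, 0 of 7 higher and 2 lower). Their fibroblast marker mean was higher (5.95 and 5.996, against 5.42 to 5.47, 3 of 7 higher and 0 lower). The part of all these in the member and fork differences between the cultures was not tested.

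Wider lists set the members among their pathways, with the members left out of each count. Of 30 other genes of nucleotide synthesis, 14 were higher and 1 lower in FVB cultures than in newborn skin, and 14 higher and 2 lower in mixed-strain cultures than in 30-day skin, with list medians of 0.29 and 0.27 against 0.02 and 0.01 over all genes. Over all genes 20.6% were higher and 18.8% lower in the first comparison, and 21.7% and 19.7% in the second. Without replicate 1 of newborn skin the 14 in FVB cultures came to 9, and with the closest arrays averaged the higher counts were 9 and 7. Mthfd2, which makes one-carbon units in mitochondria, was 1.24 ± 0.17 higher in FVB cultures (limma adjusted p = 2.9e-05), and Adss, which commits IMP to adenylate, was 1.22 ± 0.15 higher there and 1.33 ± 0.13 higher in mixed-strain cultures. Uck2, the uridine-cytidine kinase, was 1.004 ± 0.20 higher in FVB cultures than in newborn skin. Aprt, which salvages adenine, was 1.57 ± 0.10 higher in mixed-strain cultures than in 30-day skin (2.96-fold), and Adsl, an enzyme of purine synthesis, was 1.15 ± 0.13 higher. Glrx, a glutaredoxin that can reduce ribonucleotide reductase, was 0.48 ± 0.15 lower in FVB cultures. Shmt1, the cytosolic serine hydroxymethyltransferase, and Guk1, guanylate kinase, were 0.46 and 0.41 lower in mixed-strain cultures. The counts depended on the scale: centred on epithelial junction genes they were 0 higher and 21 lower in FVB cultures, and 3 higher and 11 lower in mixed-strain cultures.

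Between the skins, 4 synthesis genes were higher and 7 lower in 30-day than in newborn skin, where 8.03% of all genes were higher and 13.1% lower. At the threshold of 0.01 the counts were 1 and 5. Dtymk, thymidylate kinase, which acts on the product of Tk1 and Tyms, was 1.08 ± 0.15 lower (limma adjusted p = 0.00013), Glrx 0.87 ± 0.14 lower and Cad, which starts pyrimidine synthesis, 0.63 ± 0.15 lower. Ctps, CTP synthase, was 0.88 ± 0.15 higher, and Uck2 and Prps2, a PRPP synthetase, were 0.61 and 0.55 higher. Between the cultures 0 were higher and 2 lower in the mixed-strain cultures, the mitochondrial Shmt2 (-0.61) and Guk1 (-0.60). The lower count was near the share of all genes, of which 3.18% were higher and 6.66% lower, and it came to 0 at the threshold of 0.01. The culture-skin difference of Dtymk, like that of Tk1, was higher in the mixed-strain than in the FVB set, by 0.95 ± 0.22 (limma adjusted p = 0.011). Its parts were unlike those of Tk1, which passed only in the FVB set. Dtymk passed as 0.53 higher in mixed-strain cultures than in 30-day skin, and its -0.42 in FVB cultures against newborn skin did not pass.

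The fork list had its largest counts between the skins and between the cultures. Of 39 other fork genes, 28 were lower and 0 higher in 30-day than in newborn skin, and 20 were lower and 0 higher in mixed-strain than in FVB cultures, with medians of -0.58 and -0.46 against -0.01 and -0.01 over all genes. Over all genes 13.1% were lower and 8.03% higher between the skins, and 6.66% and 3.18% between the cultures. For culture against skin the counts of the list lay near the shares of all genes called. It had 6 higher and 10 lower in FVB cultures than in newborn skin, where 20.6% of all genes were higher and 18.8% lower. In mixed-strain cultures against 30-day skin it had 8 higher and 8 lower, where 21.7% of all genes were higher and 19.7% lower. Centred on epithelial junction genes, the list had 0 higher and 38 lower in FVB cultures, and 0 higher and 27 lower in mixed-strain cultures. In 30-day skin Tipin, of the fork protection complex, was 1.13 ± 0.15 lower, Uhrf1, which guides maintenance methylation of DNA, 1.09 ± 0.16 lower, and Pold2, a subunit of polymerase delta, 0.90 ± 0.16 lower. In mixed-strain cultures Uhrf1 was 1.12 ± 0.17 lower than in FVB cultures, Chaf1b, of the chromatin assembly factor, 0.96 ± 0.12 lower, and Timeless, the partner of Tipin, 0.86 ± 0.11 lower.

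Among fork genes higher in culture, Gins4, of the replicative helicase, was 0.56 ± 0.14 higher in FVB cultures than in newborn skin and 0.59 ± 0.13 higher in mixed-strain cultures than in 30-day skin. Chtf18, of an alternative clamp loader, and Rpa1, which binds single-stranded DNA, were 0.54 and 0.43 higher in FVB cultures. Pole2 and Pole, subunits of polymerase epsilon, were 0.69 and 0.61 higher in mixed-strain cultures. Pclaf, which binds Pcna, was 0.99 ± 0.23 lower in FVB cultures and 0.79 ± 0.21 lower in mixed-strain cultures than in the skin each was set against, with Uhrf1 (-0.92 and -0.95) beside it, Pola1, of the primase complex, lower in FVB cultures (-0.72) and Timeless lower in mixed-strain cultures (-0.78). The count of 20 between the cultures came to 7 without either mixed-strain culture and 3 with the closest arrays averaged, and that of 28 in skin to 16 without replicate 2 of newborn skin and 10 with the closest arrays averaged.

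**Figure D4:**
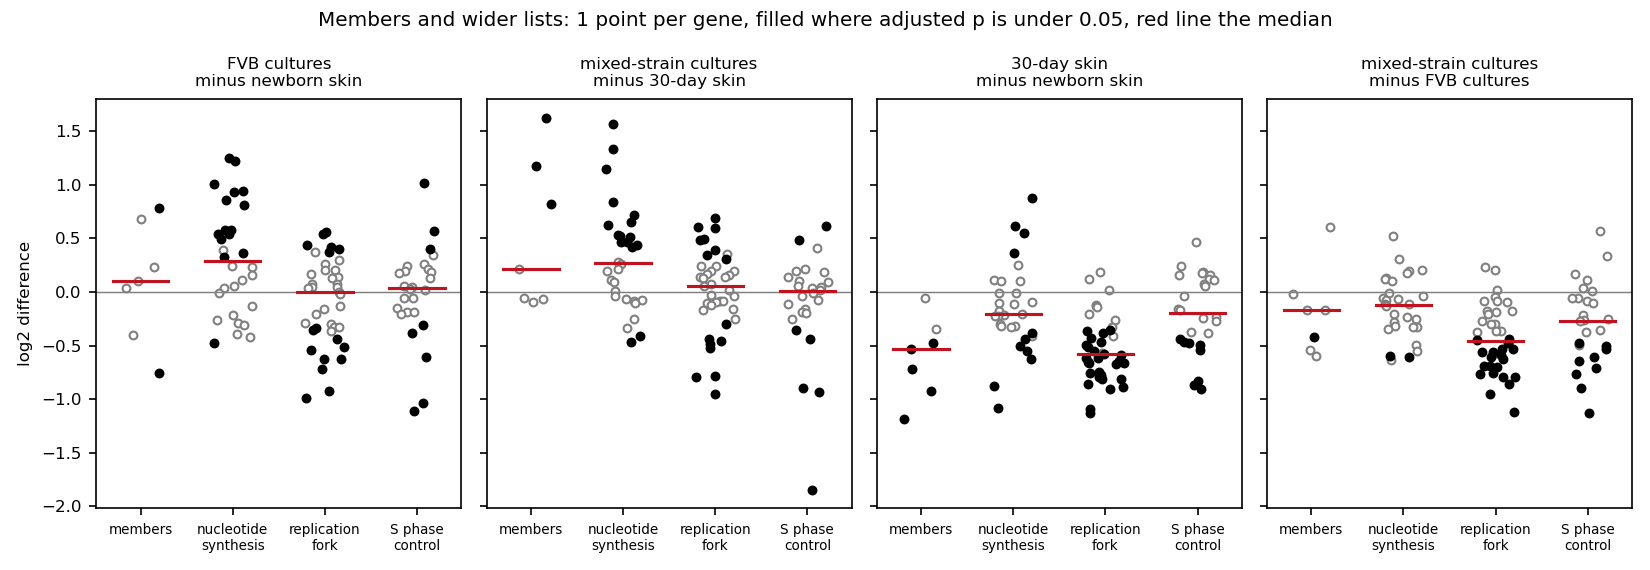
Log2 difference (y axis) of each gene among the members and 3 wider lists that leave the members out (x axis), in the 4 comparisons, with filled points where the limma adjusted p is under 0.05 and the list median in red. The fork list has its median at -0.58 for 30-day against newborn skin and at -0.46 between the cultures, and near 0 in both culture-skin panels.

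Mki67, whose product Ki-67 is widely used to mark dividing cells, went against Rrm2 in culture. It averaged 7.09 ± 0.08 in mixed-strain cultures (SD, n = 2), 8.06 ± 0.02 in FVB cultures (SD, n = 3), 8.90 ± 0.29 in 30-day skin (SD, n = 5) and 9.43 ± 0.22 in newborn skin (SD, n = 2). It was 1.37 ± 0.18 lower in FVB cultures than in newborn skin (limma adjusted p = 1.7e-05) and 1.81 ± 0.16 lower in mixed-strain cultures than in 30-day skin (limma adjusted p = 3.7e-07), the comparisons in which Rrm2 was higher on the deposited scale. Of 17 mitosis markers, 2 were higher and 6 lower in FVB cultures than in newborn skin, and 7 higher and 4 lower in mixed-strain cultures than in 30-day skin, beside 20.6% and 18.8%, and 21.7% and 19.7%, of all genes. Between the skins 0 were higher and 14 lower at 30 days (median -0.58, 13.1% of all genes lower), and between the cultures 0 were higher and 3 lower in the mixed-strain cultures (6.66% of all genes lower). The 14 came to 8 and 9 without replicate 1 or 2 of newborn skin and to 3 with the closest arrays averaged, and junction centring gave 0 higher and 13 lower in FVB cultures against newborn skin, and 2 higher and 7 lower in mixed-strain cultures against 30-day skin. E2f1, a factor that drives S-phase genes, passed in none of the comparisons.

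Across the 12 arrays the members fell into sets that the correlations describe and do not test, since the arrays share groups, strain and scaling. Pcna and Rfc3 correlated at 0.93, Rrm2 with Rfc3 at 0.83 and with Pcna at 0.80, and Tk1 with Dut at 0.82. With group means removed, Pcna and Rfc3 correlated at 0.51 and Tk1 and Dut at 0.60, but Rrm2 with Rfc3 at -0.58, with Pcna at -0.54 and with Rrm1 at -0.51, so the positive values of Rrm2 with these genes lay between groups. Probe sets of the same gene then agreed little, at -0.27 for Rrm1, -0.35 to 0.64 for Rrm2, 0.10 for Rfc3 and 0.42 for Dut. The values within groups thus describe the highest-mean probe sets only and cannot be read as relations between genes. Rrm2 and Tk1 correlated at 0.04, and the median over 21 pairs was 0.26. The genes whose pattern was most like the mean standardised profile of the 7 members over 12 arrays, among 12386 others, were Elob (Pearson 0.975), Cdk1 (0.971), Mcm2 (0.968), Jak1 (0.967), Sri (0.965), 2810025M15Rik (0.964), Septin9 (0.963) and Cdc20 (0.961). Tyms, too dim to be followed on its own probe sets, entered that profile with the same weight as each other member. Mcm2, a subunit of the helicase, averaged 7.32 ± 0.09 in mixed-strain and 7.90 ± 0.08 in FVB cultures, against 6.95 ± 0.25 in 30-day and 7.98 ± 0.10 in newborn skin (SD). Of the fork and synthesis lists the clamp loader subunit Rfc5 stood closest, at rank 11 (0.953), and Ctps correlated at -0.915.

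**Figure D5:**
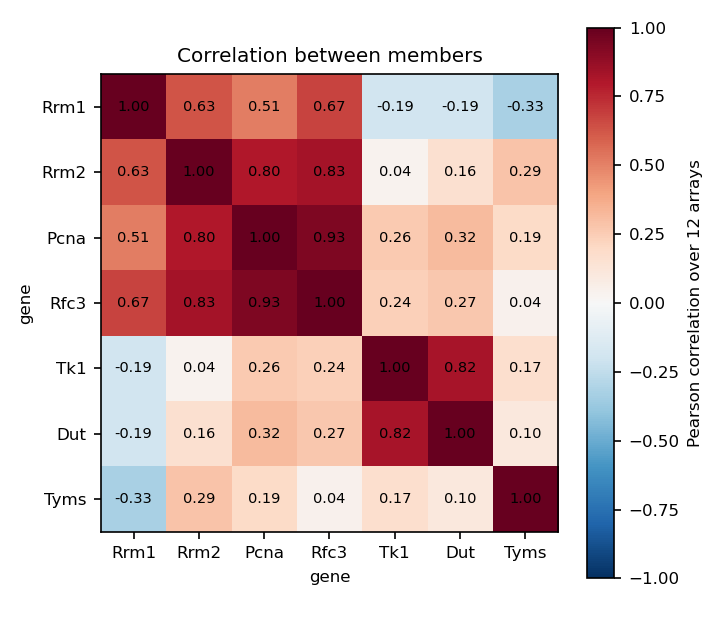
Pearson correlation over the 12 arrays between each pair of members (both axes), on the highest-mean probe sets. Rrm1, Rrm2, Pcna and Rfc3 form a block of positive values, with Pcna and Rfc3 at 0.93, Tk1 and Dut form a pair at 0.82, and Rrm1 and Tyms have the lowest value at -0.33. The Tyms probe set is dim, at or above only 12.2% of all probe sets.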

How the data were processed

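The authors deposited log2 values, made by RMA per the submitters' processing notes, whose version is not given in the sources used here. RMA corrects background, equalises the arrays' distributions by quantiles and summarises probes, and this assumes similar RNA distributions in culture and skin. RMA values hold no detection call, and the number of arrays limits precision. Of 22690 probe sets 64 controls were left out, and 20380 had 1 symbol, 691 several and 1555 none. Each gene took its probe set of highest mean, which gave 12393 genes. limma 3.58.1 in R 4.3.3 fitted 1 mean per group over all 12 arrays (lmFit and eBayes, two-sided, Benjamini-Hochberg over all genes, threshold 0.05), and again over 22626 probe sets. Paralog pairs had an exact permutation test. The fits were tested on simulated data. The members and lists were chosen with earlier results of these data known. Named genes are the members, Rrm2b, Tk2, Samhd1, E2f1, Mki67, Cdkn1a, up to 3 called genes per list, direction and comparison, and the 8 genes most like the members. Same-numbered arrays deviated together (correlation over 0.1) in 0 of 9 pairs, so numbers were not taken to pair samples. Alternatives changed scaling, probe set rule, filter, threshold, variance model, weights, group means and arrays used. Averaging the closest arrays was chosen after seeing the data. It joined replicates 2 and 3, and 4 and 5, of 30-day skin, both newborn arrays and both mixed-strain cultures. Newborn skin and the mixed-strain cultures were then left with 1 array each. Motif searches and figures used Python 3.11.15, numpy 2.4.6, pandas 2.3.3 and matplotlib 3.10.9.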

Additional observations from a re-analysis of the deposited data

Results flagged for a closer look

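Among 15 probe sets tested in 30-day skin, 3 had an array farther from the rest than Dixon's 95% value allows, and chance gives about 1 in 20. On 1448127_at of Rrm1, replicate 1 read 6.87 and the other 4 arrays 8.02 to 8.22. On 1423700_at of Rfc3 the same replicate read 4.59 and the others 5.25 to 5.49. On 1424991_s_at, shared by Tyms-ps and Tyms, replicate 4 read 6.82 and the others 6.96 to 6.99. The culture-skin difference of Tk1 was 0.70 higher in the mixed-strain set than in the FVB set by the test of that difference, with limma's adjusted p at 0.022. It largely repeats the Tk1 difference between the skins.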

How the results depend on the processing

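Of 781 recomputed member differences under 23 settings, 719 kept their side of the threshold with no called value reversed (24 of them changed sign without passing in either fit), 31 passed anew, 26 no longer passed and 5 reversed. The reversals came with centring on 22 epithelial junction genes, which shifts the median of all genes to -0.86, -0.53 and -0.35 in FVB cultures against newborn skin, mixed-strain cultures against 30-day skin and 30-day against newborn skin: Rrm2 -0.093, Tyms -0.84, Pcna -0.77 and Rfc3 -0.64 in the first and Pcna -0.34 in the second. The 22 genes include the basal keratins Krt5 and Krt14, which are also among the basal keratinocyte markers. All 5 reversed values stayed above the shifted median of their comparison, Tyms only just. Members were then 0 higher and 5 lower in the first, 4 lower in the second, and 3 higher in the difference between the sets. Centring on array medians, which moves the medians of both culture-skin comparisons to 0.19 and 0.16, gave 2 higher in the first. The mean of all probe sets gave 2 higher there and 2 lower between the cultures, array weights 2 and 2 there and 1 higher and 3 lower between the cultures, and 1 mean for all cultures 2 and 2. The replicate number as a block, the threshold of 0.01 and the closest arrays averaged each left 0 members in the difference between the sets. The last 2 left 0 between the cultures, and averaging left 3 lower in 30-day skin. Leaving out 1 array gave 0 to 2 higher and 1 to 2 lower in FVB cultures, 0 to 1 higher and 0 to 3 lower between the cultures, and 0 to 2 higher in the difference between the sets. Leaving out replicate 1 of 30-day skin gave the most calls between the cultures. The cause of these changes was not tested, except that averaging leaves fewer samples. The block changed these member calls too: Dut in 30-day skin (limma adjusted p = 0.27) and Pcna between the cultures (0.38) were lost, and Rrm2 between the cultures passed (0.019). Over all genes, calls went to 307 higher and 10298 lower in FVB cultures under junction centring, against 2558 and 2331, and to 4103 and 1766 under median centring. In mixed-strain cultures they went to 697 and 8508 and to 3908 and 1857, against 2687 and 2446. With the closest arrays averaged they were 231 and 405 in 30-day skin, against 995 and 1626, and 55 and 69 between the cultures, against 394 and 825.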

Other observations

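Of 26 genes that control entry into S phase, 0 were higher and 8 lower in 30-day than in newborn skin, where 8.03% of all genes were higher and 13.1% lower, and 0 higher and 9 lower in mixed-strain than in FVB cultures, where 3.18% were higher and 6.66% lower. The 8 came to 4 without replicate 2 of newborn skin and 2 with the closest arrays averaged. The 9 came to 3 and 4 without replicate 1 or 2 of the mixed-strain cultures and 0 with averaging. Relative to newborn skin, FVB cultures had 3 higher and 5 lower, and relative to 30-day skin, mixed-strain cultures had 2 higher and 5 lower, the lower counts near the 18.8% and 19.7% of all genes, and centring on epithelial junction genes gave 0 and 24, and 0 and 22. Myb, a factor of dividing progenitors, was 1.11 ± 0.15 lower in FVB cultures than in newborn skin and 1.84 ± 0.13 lower in mixed-strain cultures than in 30-day skin (log2 difference ± SE). Cdkn1b, an inhibitor of cyclin-dependent kinases, was 1.04 and 0.93 lower in these comparisons, and Rb1, which restrains E2F, 0.60 and 0.90 lower. Dbf4, the activator of the Cdc7 kinase, was 1.02 ± 0.18 higher in FVB cultures than in newborn skin. The origin licensing factor Cdt1 and its inhibitor Gmnn were lower in 30-day than in newborn skin (-0.83 and -0.91) and in mixed-strain than in FVB cultures (-1.13 and -0.90). Cdkn1a, the p53 target p21, was 0.57 ± 0.18 higher in FVB cultures than in newborn skin, and its probe sets disagreed in 30-day against newborn skin (0.16, which did not pass, and 1.29, which did).

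Of 13 genes of nucleotide breakdown, 5 were higher and 2 lower in FVB cultures than in newborn skin, 4 and 2 in mixed-strain cultures than in 30-day skin, 3 and 3 in 30-day than in newborn skin, and 1 and 2 in mixed-strain than in FVB cultures. Over all genes 20.6% were higher and 18.8% lower in the first comparison and 21.7% and 19.7% in the second. Junction centring turned the counts there to 0 and 9, and 0 and 8. Between the skins 8.03% of all genes were higher and 13.1% lower, and between the cultures 3.18% and 6.66%. Junction centring gave 2 higher and 5 lower between the skins, and 0 and 0 between the cultures. With the replicate number as a block these counts were 2 and 0, and 1 and 0. With array weights they were 3 and 3, and 2 and 3. Upp1, uridine phosphorylase, was 1.08 ± 0.30 lower in FVB cultures than in newborn skin, 2.13 ± 0.28 lower in mixed-strain cultures than in 30-day skin and 1.05 ± 0.28 higher in 30-day than in newborn skin. Xdh, which oxidises purines to urate, was 1.14 ± 0.20 higher in FVB cultures than in newborn skin and 1.23 ± 0.19 higher in 30-day than in newborn skin, comparisons that share the newborn arrays. Ada, adenosine deaminase, was 0.98 ± 0.14 higher in FVB cultures than in newborn skin and 0.51 ± 0.14 lower in mixed-strain than in FVB cultures. Samhd1, which cleaves deoxynucleotides, was 0.39 ± 0.14 higher in FVB cultures than in newborn skin on 1418131_at, but on 1434438_at the difference was -0.44 and passed in the other direction.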
